A study of Mus musculus with 12 samples.

Results

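The genes of the mitochondrial ribosome were followed in the epididymal white adipose tissue (eWAT), the visceral fat pad beside the epididymis, of male C57BL/6J mice. The members were the genes named Mrpl or Mrps followed by a number and at most 1 letter, the names of the proteins of the large and the small subunit. There were 70 of them among 22947 genes, 43 of the large and 27 of the small subunit, spread over 17 chromosomes. All 70 passed the filter on low values. Another 8 subunit genes stand in the deposited table under a name outside this pattern, most of them that of another gene and Mrpl58 its older symbol Ict1, and are described apart from the members.

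Whole-tissue mRNA was sequenced from 3 mice of each of 4 groups, 12 libraries in all, and the study describes the mice as representative of larger groups. The mice were 21 weeks old and had been fed for 16 weeks with a normal diet (ND), a high-fat diet (HFD), the HFD to which an ethanol extract of chrysanthemum leaf was added at 1.5% by weight (CLE), or the HFD with 0.003% by weight of luteolin (LU), a flavonoid of the plant. The CLE and LU groups therefore share the HFD background, and the extract and the pure flavonoid were fed at different doses. Values are FPKM, mapped fragments scaled by transcript length and by the library's mapped fragments, so that levels can be compared between genes per length. The read depth is not known from these values. Each library's genes summed to between 435095 and 455040 FPKM.

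The mitochondrial ribosome makes the few proteins that mitochondrial DNA encodes, which are subunits of the respiratory chain and of ATP synthase. Its proteins are encoded in the nucleus, translated in the cytosol and imported, while its ribosomal RNAs come from mitochondrial DNA. The small subunit reads the mRNA, and the large subunit joins the amino acids and sits at the inner membrane, where the new proteins are inserted. White adipocytes use their mitochondria for lipid synthesis and breakdown as well as for respiration.

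The eWAT libraries expressed the adipocyte markers in every mouse, and the cell types differed between diets. The summed FPKM of 10 macrophage markers was 338 to 506 in ND, 2647 to 3072 in HFD, 601 to 962 in CLE and 984 to 1163 in LU, and all 10 were higher in HFD than in ND. The summed FPKM of 10 adipocyte markers was 33145 to 35315 in ND, 20773 to 22971 in HFD, 29225 to 32348 in CLE and 27711 to 33478 in LU, and 8 of the 10 were lower in HFD. None of these markers was at 0 in any library. In HFD against ND 3 of 6 endothelial and 4 of 5 mesothelial markers were lower, and 2 of 6 fibroblast and progenitor markers higher. Over all genes tested 24.8% were lower in HFD and 25.7% higher. Of the other marker lists, lymphocyte genes summed to at most 12.4 FPKM per library and skeletal muscle genes to at most 16.3 FPKM, the latter in CLE mouse 11. Epididymis genes summed to at most 5.99 FPKM, and brown adipocyte genes to 28.6 to 43.3 FPKM. In whole tissue, fewer cells of a type and less RNA per cell cannot be told apart. In 4 libraries (ND 3, ND 4, CLE 4 and LU 2) the deposited column name carries a letter R, and the same further number after that of the mouse. The labels explain neither, and no HFD library has them.

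The members were expressed at moderate levels. Their mean FPKM over the 12 libraries ran from 2.48 to 101, with a median of 17.6, against 11.2 over all 12775 genes tested. The medians of the large and the small subunit were close, 19.0 and 17.4 FPKM. In the large subunit the highest means were those of Mrpl48 (101 FPKM), Mrpl33 (53.1 FPKM) and Mrpl20 (48.4 FPKM), and the lowest those of Mrpl47 (2.48 FPKM), Mrpl19 (2.76 FPKM) and Mrpl57 (4.82 FPKM). In the small subunit the highest were Mrps21 (78.8 FPKM), Mrps23 (39.4 FPKM) and Mrps15 (36.7 FPKM), and the lowest Mrps27 (5.80 FPKM), Mrps22 (7.93 FPKM) and Mrps30 (9.27 FPKM). Across the 12 libraries the median Pearson correlation over 2415 pairs of members was 0.53, and 0.33 after each group's mean was removed. These correlations describe libraries that share diet groups and normalization.

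The HFD group was compared with the ND group to see which members went with the diet. The transcripts of the mitochondrial ribosome were lower in the HFD group: 34 of the 70 members fell, 1 rose and 35 did not pass (limma, Benjamini-Hochberg adjusted p under 0.05 over all genes tested). That is 48.6% of the members in the lower direction, where 24.8% of all genes tested were lower and 25.7% higher. The median log2 fold change of the members was -0.30, against -0.02 over all genes, and 65 of the 70 members had a negative value. The 3 HFD mice lay below the 3 ND mice without overlap in 39 members and above them in 2, against 29.3% and 30.2% of all genes. In 53 of the 70 members the HFD group had the lowest mean of the 4 groups, and in 54 the ND group had the highest. These group orders were not counted over all genes, so that they are no result about the members.

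**Figure D1:**
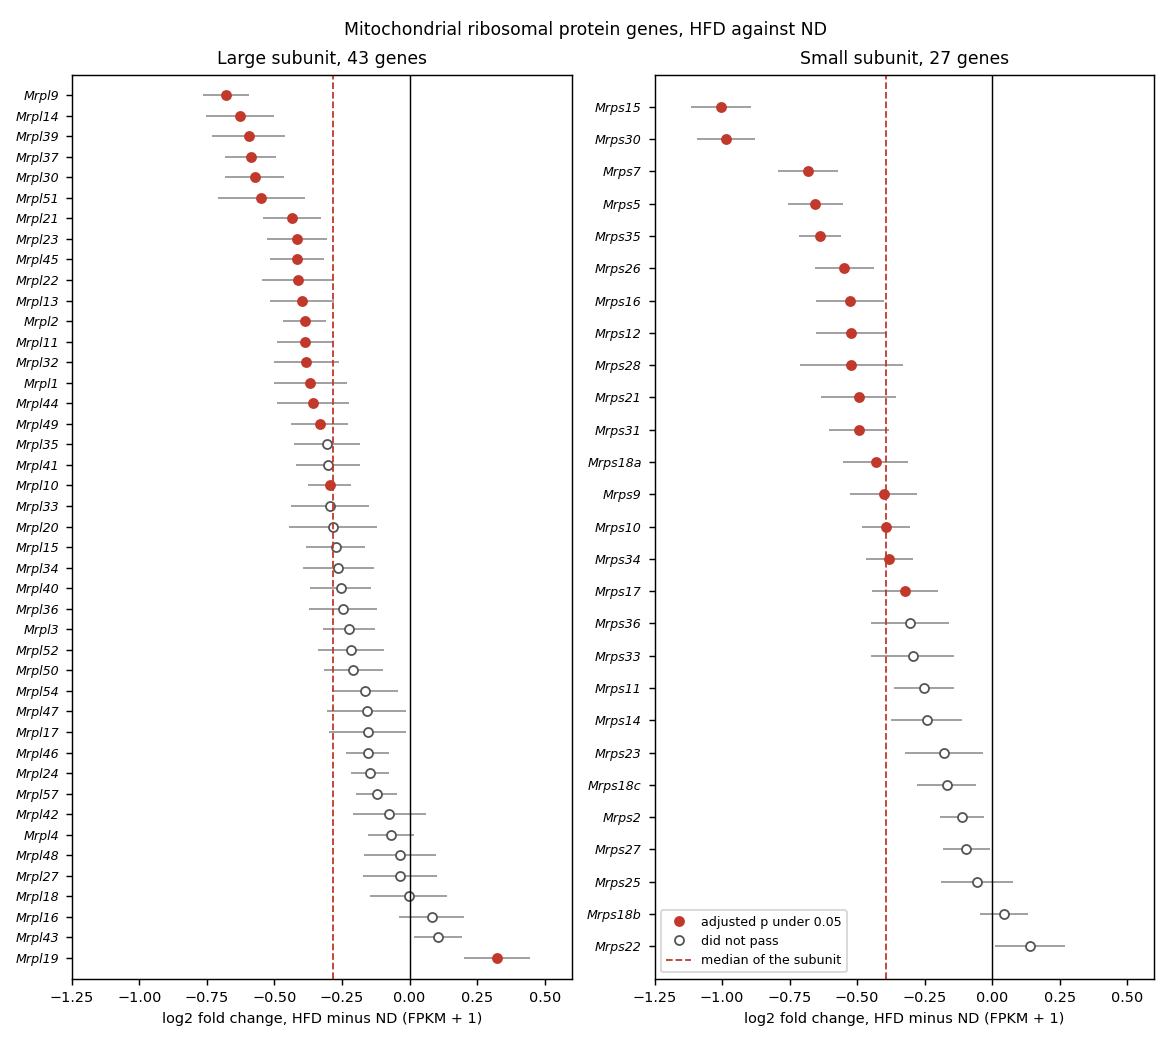
Log2 fold change of each member gene in HFD against ND, on the log2(FPKM + 1) scale, with its standard error as a bar, for the large subunit (left) and the small subunit (right). Filled points passed at an adjusted p under 0.05 and the dashed line is the median of the subunit (-0.28 large, -0.39 small): values run from -1.0 for Mrps15 to 0.32 for Mrpl19.

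Members of both subunits fell. Of the 43 members of the large subunit 18 fell and 1 rose, with a median log2 fold change of -0.28. Of the 27 members of the small subunit 16 fell and none rose, with a median of -0.39. The names do not follow the structure in every case, because the proteins of Mrps30 and Mrps18a lie in the large subunit of the mammalian particle. With these 2 genes moved, 20 of 45 large and 14 of 25 small subunit genes fell, with medians of -0.30 and -0.38. The difference between the subunits was not tested.

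With a fold change over 1.5 as a further condition, 9 of the 70 members were lower and none higher. By this rule 10.8% of all genes were lower and 14.9% higher. The share of members that was lower is near that of all genes, so that the count of 9 is no result about the members. These 9 were Mrps15, Mrps30, Mrps7, Mrps5 and Mrps35 of the small subunit by name, and Mrpl9, Mrpl14, Mrpl39 and Mrpl37 of the large subunit.

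Mrps15 encodes a small subunit protein whose bacterial counterpart binds the ribosomal RNA early in assembly. Its level was 46.9, 48.3 and 49.3 FPKM in the ND mice, 22.9, 24.3 and 23.5 FPKM in the HFD mice, 33.8, 39.7 and 37.5 FPKM in the CLE mice and 32.3, 45.0 and 36.5 FPKM in the LU mice. The HFD mice lay below all others and the ND mice above all others, with the CLE and LU mice between them. The log2 fold change in HFD against ND was -1.0 ± 0.11 (SE, n = 3 per group, limma adjusted p = 2.4e-05), the largest fall among the members.

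Mrps30, also called PDCD9 after an older link to programmed cell death, showed a pattern close to it. It measured 12.9, 13.9 and 12.1 FPKM in the ND mice, 5.89, 6.18 and 6.10 FPKM in the HFD mice, 9.72, 8.39 and 7.99 FPKM in the CLE mice and 8.30, 10.97 and 8.81 FPKM in the LU mice. The ND and HFD mice did not overlap with each other or with the supplemented groups. In HFD against ND the log2 fold change was -0.98 ± 0.11 (SE, n = 3 per group, limma adjusted p = 2.1e-05). An exact permutation test of 3 mice against 3 cannot give a two-sided p below 0.1, and 0.1 was its value for both genes.

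Mrps7 and Mrps5 belong to the small subunit, and their bacterial counterparts bind the head and the body of that subunit. Mrps7 measured 21.7, 27.5 and 27.1 FPKM in ND and 15.1, 16.9 and 14.2 FPKM in HFD. Mrps5 measured 18.4, 16.6 and 16.2 FPKM in ND and 10.4, 10.4 and 10.7 FPKM in HFD. In both genes all HFD mice were below all ND mice, and the HFD mice were nearly equal in Mrps5. The log2 fold changes were -0.68 ± 0.11 for Mrps7 and -0.66 ± 0.10 for Mrps5 (SE, n = 3 per group). Mrps35 fell by 0.64 on the log2 scale, from a mean of 15.3 ± 0.57 FPKM to 9.46 ± 0.34 FPKM (SD, n = 3 each).

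Among the members of the large subunit by name Mrpl9 had the largest fall. Its level was 29.7, 31.8 and 27.5 FPKM in ND, 17.8, 18.2 and 18.3 FPKM in HFD, 23.3, 23.4 and 21.4 FPKM in CLE and 21.9, 23.8 and 19.8 FPKM in LU, and no HFD mouse overlapped with another group. The log2 fold change in HFD against ND was -0.68 ± 0.09 (SE, n = 3 per group, limma adjusted p = 6.7e-05). Mrpl14, Mrpl39 and Mrpl37 fell by 0.63, 0.59 and 0.59 on the log2 scale. Mrpl37 measured 31.8, 33.2 and 29.2 FPKM in ND and 18.7, 20.1 and 22.9 FPKM in HFD. In Mrpl39 ND mouse 3 stood apart at 22.9 FPKM from the 15.8 and 17.1 FPKM of the other ND mice. Without the libraries with the letter R, which leaves ND mouse 2 alone in its group, Mrpl39 was at -0.39 and Mrpl14 at -0.38.

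**Figure D2:**
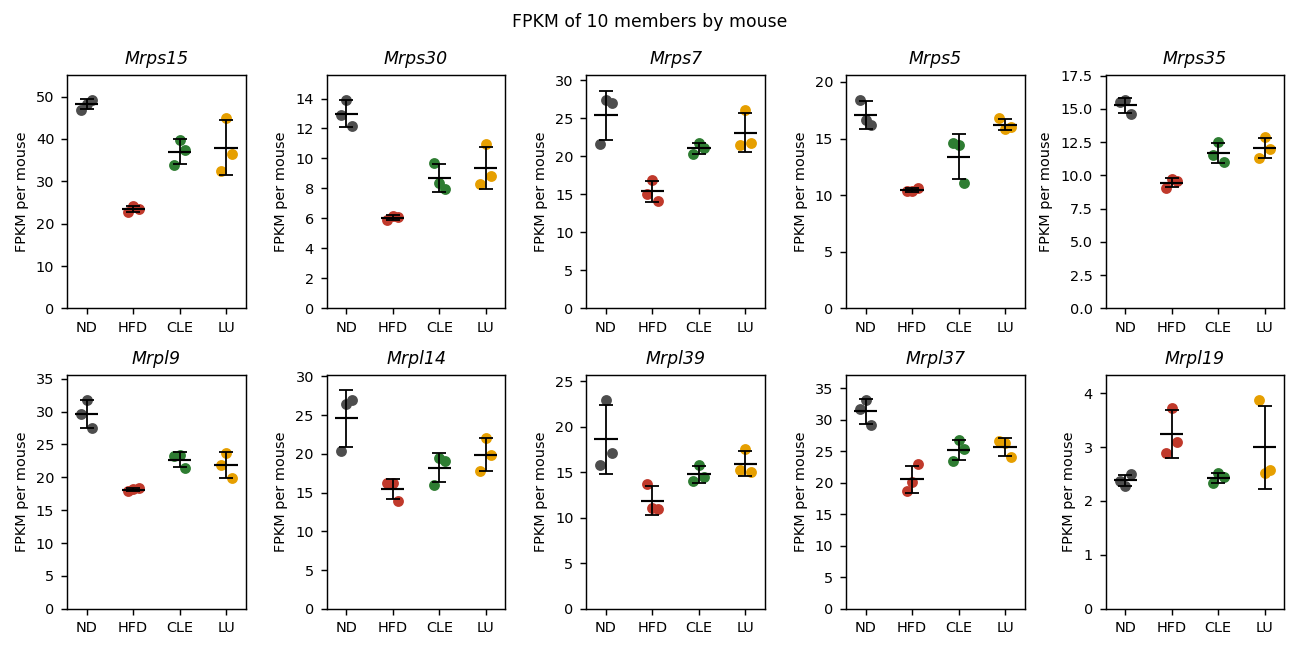
FPKM of 10 members in each mouse (points), with the group mean and SD (line and bar, n = 3), in the ND, HFD, CLE and LU groups. In Mrps15 the HFD mice sit between 22.9 and 24.3 FPKM and the ND mice between 46.9 and 49.3 FPKM, with the CLE and LU mice between; Mrpl19 is the member that was higher in HFD.

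Mrpl19 was the only member that rose in HFD against ND with all 12 libraries in the fit. It measured 2.38, 2.28 and 2.49 FPKM in ND and 2.89, 3.73 and 3.10 FPKM in HFD, and the groups did not overlap. The log2 fold change was 0.32 ± 0.12 (SE, n = 3 per group, limma adjusted p = 0.045). The call was lost in 16 alternatives, and without HFD mouse 15 the value was 0.24 with a limma adjusted p of 0.17. Its exons overlap those of Gcfc2 on the other strand, and the library kit named in the labels does not mark the strand. The same limit holds for the fallen members Mrps30, Mrps7, Mrpl9 and Mrpl14, and for Mrpl48, whose exons also overlap genes on the other strand. Mrps15, Mrps5, Mrps35, Mrpl39 and Mrpl37 had no such overlap.

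The members that did not pass included genes of both ends of the level range. Mrpl48, the highest, had group means of 111 ± 17.1 FPKM in ND and 108 ± 13.2 FPKM in HFD (SD, n = 3 each), with a log2 fold change of -0.04. Mrps22, a small subunit gene, had a log2 fold change of 0.14 ± 0.13 (SE, n = 3 per group), and without ND mouse 3 it was 0.30 and passed as higher in HFD (limma adjusted p = 0.028). A p that misses the threshold does not show that these genes were equal in both groups.

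The 3 paralogues of the bacterial S18 protein occupy different sites of the mitochondrial particle. Differences between their values were not tested. Mrps18a fell, from 18.3, 24.8 and 23.1 FPKM in ND to 15.4, 16.4 and 16.1 FPKM in HFD (log2 fold change -0.43 ± 0.12, SE, n = 3 per group, limma adjusted p = 0.011). Without the libraries with the letter R, which leaves ND mouse 2 alone in its group, the value of Mrps18a was -0.19. Mrps18b measured 19.3, 18.4 and 19.5 FPKM in ND and 18.7, 19.6 and 20.9 FPKM in HFD, with overlapping groups and a log2 fold change of 0.04 ± 0.09. Mrps18c overlapped as well, with a log2 fold change of -0.17 ± 0.11. Mrps36, whose protein is now assigned to the oxoglutarate dehydrogenase complex rather than to the ribosome, had a log2 fold change of -0.30 ± 0.14 and did not pass (limma adjusted p = 0.099). Without ND mouse 2 the value of Mrps36 was -0.48 and passed (limma adjusted p = 0.0055), without ND mouse 3 it was -0.12, and with array weights it was -0.33 and passed (limma adjusted p = 0.026).

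The spread within the ND group bears on these counts. ND mouse 3 had the highest value of the ND mice in 53 of the 70 members and ND mouse 2 the lowest in 45. The summed FPKM of the members was 1568, 1941 and 1749 in the ND mice and 1350, 1471 and 1352 in the HFD mice. ND mouse 3 also had the highest sum of cytosolic ribosomal protein genes of the ND mice, 22827 FPKM. ND mice 3 and 4 carry the letter R and ND mouse 2 does not. Without the 4 libraries with this letter ND mouse 2 is the only ND mouse, assumed to vary like the other groups, and calls are not counted here. The median log2 fold change of the members was then -0.18, against -0.30 with all 12 libraries. Mrps30 (-0.98) and Mrps15 (-0.97) stayed near their values with all libraries, while Mrps18a went from -0.43 to -0.19 and Mrps21 from -0.49 to -0.20. All 3 HFD mice were below ND mouse 2 in 42 of the 70 members. The same was not counted over all genes, so that this is no result about the members.

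**Figure D3:**
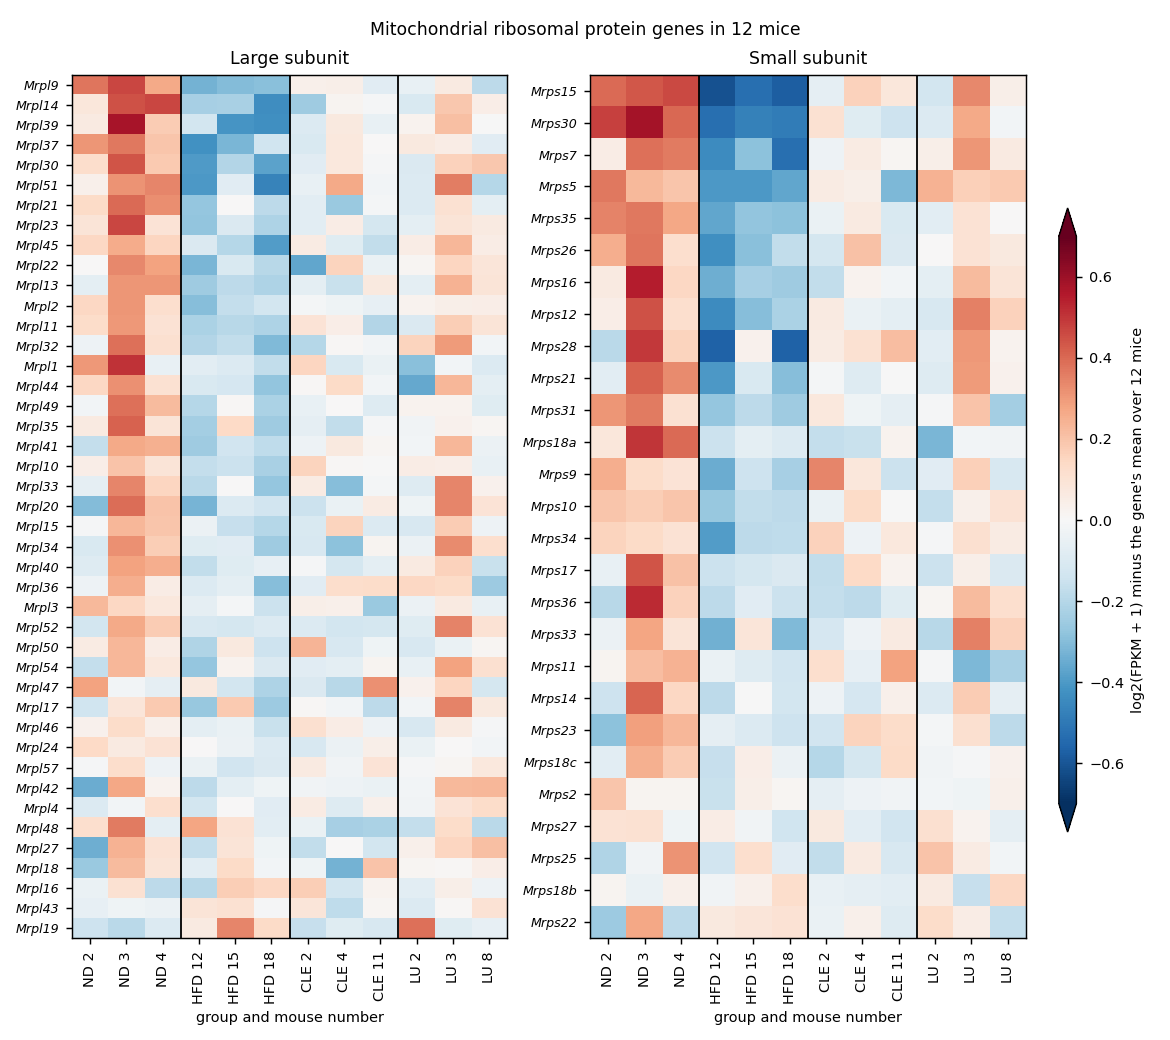
Level of each member (rows) in each of the 12 mice (columns), as log2(FPKM + 1) minus the mean of the gene over the 12 mice, ordered by the change in HFD against ND within each subunit. Blue is below and red above the gene's mean: the HFD columns are mostly blue, and ND mouse 3 and LU mouse 3 are the reddest of their groups.

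The FPKM of the members were summed over the large and the small subunit by gene name. Mrps30 and Mrps18a, whose proteins lie in the large subunit, and Mrps36 were thus summed with the small subunit. The sums with these genes moved were not computed, so that their ratio is no measure of the stoichiometry of the particle. The large subunit members summed to 1110 ± 119 FPKM in ND, 918 ± 43.2 in HFD, 966 ± 5.30 in CLE and 1037 ± 87.2 in LU (SD, n = 3 each). The small subunit members summed to 643 ± 68.3 FPKM in ND, 472 ± 29.3 in HFD, 553 ± 11.4 in CLE and 573 ± 48.4 in LU. The HFD group was thus at 82.8% of the ND mean in the large subunit and at 73.5% in the small subunit. The ratio of small to large was 0.494, 0.521 and 0.528 in the HFD mice, and between 0.551 and 0.589 in the 9 mice of the other groups. The HFD mice did not overlap with any other group in this ratio. Without Mrps15, the small subunit gene with the largest fall, the ratio was 0.468 to 0.502 in the HFD mice and 0.513 to 0.545 in the others, and the HFD mice still lay below. Each sum is weighted toward the members with the highest FPKM, such as Mrpl48 and Mrps21.

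**Figure D4:**
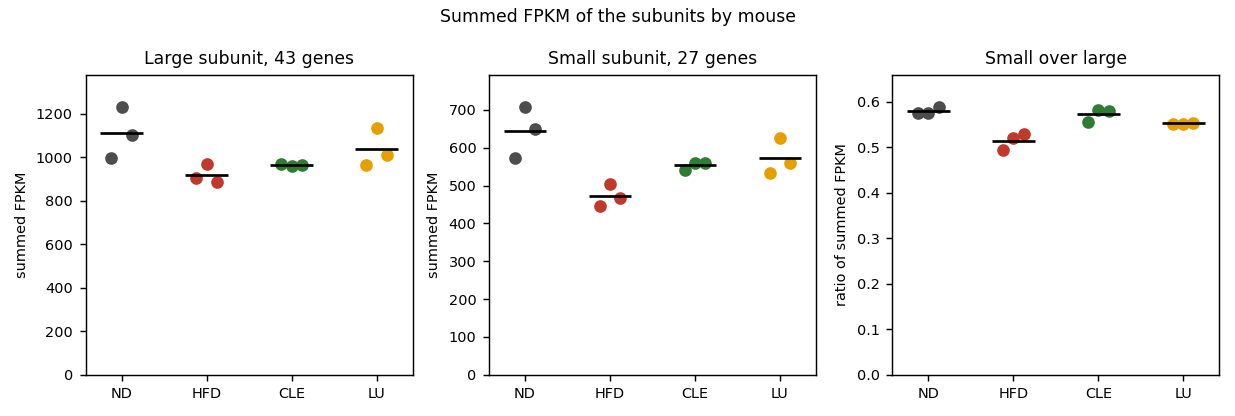
Summed FPKM of the large subunit members (left) and the small subunit members (middle) and the ratio of the sums, small over large (right), in each mouse (points) with the group mean (line, n = 3). The subunits are those of the gene names. The ratio lies between 0.494 and 0.528 in the HFD mice and between 0.551 and 0.589 in all other mice.

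Beside the members, the other parts of mitochondrial gene expression were counted from fixed lists in the same comparison. Over all genes tested 24.8% were lower in it and 25.7% higher. Of 15 mitochondrial translation factors 7 fell and none rose, with a median log2 fold change of -0.28. They included Mtfmt, which formylates the initiator tRNA (-0.50), the elongation factors Tufm and Tsfm (-0.35 each) and the ribosome recycling factor Mrrf (-0.51). Of 25 genes of mitoribosome assembly 10 fell and 1 rose, with a median of -0.25. Among them Mterf3 (-1.31), Malsu1 (-0.67) and Ngrn (-0.62) had the largest falls, and Rbfa, a factor of small subunit maturation, rose by 0.23. Of 17 mitochondrial aminoacyl-tRNA synthetases 5 fell, led by Nars2 (-0.59), with a median of -0.19. These are 29.4% of the synthetases, close to the share of all genes, so that the count is no result about them. Of 9 genes of mitochondrial transcription and DNA maintenance 5 fell, with a median of -0.41, among them Polg2 of the DNA polymerase (-0.67), the helicase Twnk (-0.54) and the single-strand binding protein Ssbp1 (-0.50). None of 9 regulators of mitochondrial biogenesis passed, with a median of 0.03, and 0 of them had an unadjusted p under 0.05, as 56.6% of all genes did. The mitochondrially encoded mRNAs were not analysed here.

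The 8 subunit genes under another name had the same sign as most members. In HFD against ND 5 of them fell, Mrpl38 (-0.65), Mrpl28 (-0.44), Mrps24 (-0.43), Mrpl53 (-0.33) and Mrpl55 (-0.28), and the median of the 8 was -0.31. These 5 are 62.5% of the 8, where 24.8% of all genes tested were lower. Mrpl12, whose protein also binds the mitochondrial RNA polymerase, had a log2 fold change of -0.30 ± 0.17 and did not pass. Mrpl58, which encodes a peptidyl-tRNA hydrolase built into the large subunit, had one of -0.22 ± 0.13 and did not pass either. Of 5 subunit genes with names outside the Mrp series 2 fell, Gadd45gip1 (-0.36) and Ptcd3 (-0.27).

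The respiratory chain and the cytosolic ribosome lay on either side of the mitochondrial ribosome. Of 68 nuclear genes of oxidative phosphorylation (OXPHOS) subunits 61 fell and none rose, with a median log2 fold change of -0.66, and the sum in HFD was 61.7% of that in ND. Of 75 cytosolic ribosomal protein genes 9 fell and 1 rose, with a median of -0.11 and a sum at 92.6% of ND. The 9 are 12.0% of that list, below the 24.8% of all genes tested that were lower. The members were at 79.3% of ND, and the adipocyte markers at 62.6%. Of 16 genes of mitochondrial import and folding 6 fell and 1 rose, with a median of -0.22. The differences between the lists were not tested. The adipocyte markers were lower and the macrophage markers higher in the same HFD mice, and their part in the result was not tested.

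**Figure D5:**
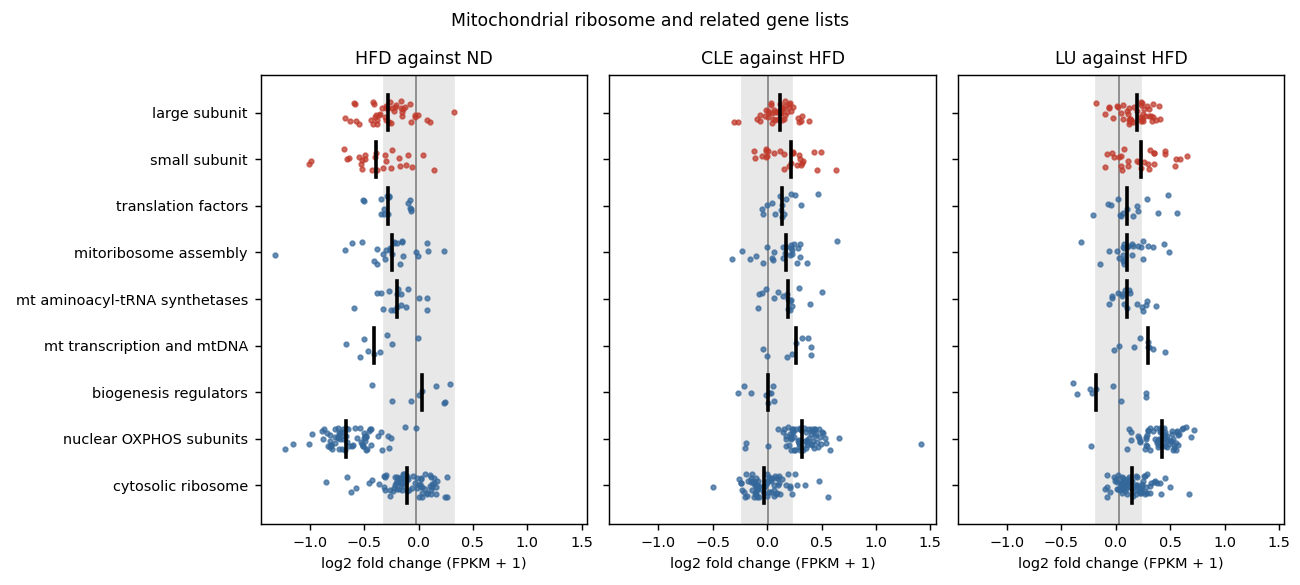
Log2 fold change (log2(FPKM + 1) scale) of each gene (points) of the subunits (red) and of related gene lists (blue) in HFD against ND, CLE against HFD and LU against HFD, with the median of each list as a black bar and the median and quartile range of all genes tested as a grey line and band. In HFD against ND the medians are -0.28 and -0.39 for the subunits, -0.66 for OXPHOS and -0.11 for the cytosolic ribosome.

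The promoters of the members were searched for the cores of 4 motifs of factors known for nuclear mitochondrial genes, in windows of 300 bases, 250 before to 50 after the transcript start (RefSeq, GRCm38.p6). Of the members 62 matched, with 68 promoters. The GABPA core CCGGAAG was in 35.3% of the member promoters, against 17.0% of the promoters of tested genes and 8.86% of all 32851 promoters, on either strand. The NRF1 core GCATGCG was in 11.8% of the member promoters, against 6.16% and 3.58%. The YY1 core ATGGCGG was in 17.6%, against 7.67% and 4.05%, and this core begins with the letters of a start codon. The E-box CACGTG was in 10.3%, against 9.78% and 7.15%. By outcome in HFD against ND, the GABPA core was in 8 of the 30 fallen genes with a promoter and in 16 of the 32 others, the NRF1 core in 5 and 3, and the YY1 core in 6 and 6. A match describes the letters in the window and not a site in use.

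The stretches shown end just before the first annotated base of the gene. Mrpl9 (chr3:94443238-94443317, + strand) and Mrps18a (chr17:46110906-46110985, + strand) are shown as fallen members with a core, and Mrpl37 (chr4:107066869-107067048, - strand) with an E-box. Mrps27 (chr13:99344706-99344785, + strand) is shown as a gene with a core that did not pass, and Mrps15 (chr4:126046845-126046924, + strand) and Mrpl14 (chr17:45686242-45686321, + strand) as fallen members whose whole window held none of the 4. Capitals mark the NRF1 core on both strands, which overlap, in Mrpl9, the GABPA core in Mrps18a and, on the other strand, in Mrps27, and the E-box in Mrpl37.
Mrpl9: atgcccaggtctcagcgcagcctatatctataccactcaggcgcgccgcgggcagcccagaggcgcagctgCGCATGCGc
Mrps18a: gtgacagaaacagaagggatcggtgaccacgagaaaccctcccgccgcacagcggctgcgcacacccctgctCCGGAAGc
Mrpl37: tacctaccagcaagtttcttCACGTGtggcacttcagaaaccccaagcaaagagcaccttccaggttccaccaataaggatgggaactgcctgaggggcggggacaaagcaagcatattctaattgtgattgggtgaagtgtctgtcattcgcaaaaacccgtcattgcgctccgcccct
Mrps27: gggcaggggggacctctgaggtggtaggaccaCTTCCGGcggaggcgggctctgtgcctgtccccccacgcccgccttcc
Mrps15: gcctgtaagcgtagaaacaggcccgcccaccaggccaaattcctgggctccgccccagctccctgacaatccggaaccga
Mrpl14: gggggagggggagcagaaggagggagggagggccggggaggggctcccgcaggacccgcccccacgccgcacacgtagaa

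The CLE group was compared with the HFD group to see which members went with the extract. In CLE against HFD 10 members rose, none fell and 60 did not pass (limma, adjusted p under 0.05), with a median log2 fold change of 0.14, against 0.01 over all genes tested. These 10 are 14.3% of the members, close to the 15.5% of all genes that were higher (18.1% were lower), so that the count is no result about the members. Of the large subunit 4 rose (Mrpl9, Mrpl10, Mrpl30 and Mrpl37), and of the small subunit 6 (Mrps5, Mrps7, Mrps15, Mrps30, Mrps34 and Mrps35), with medians of 0.12 and 0.22. Mrps15 rose the most, by 0.63 ± 0.11 (SE, n = 3 per group, limma adjusted p = 0.0013), followed by Mrps30 (0.46 ± 0.11), Mrps7 (0.43 ± 0.11), Mrpl30 (0.32 ± 0.11) and Mrps5 (0.32 ± 0.10). Mrps15 was the only one with a fold change over 1.5, and 6.33% of all genes were higher by this rule.

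In Mrps7 the CLE mice measured 20.3, 21.8 and 21.1 FPKM, all above the HFD mice. In Mrps5 they measured 14.6, 14.5 and 11.1 FPKM, so that CLE mouse 11 stood close to the HFD mice, and the call of Mrps5 was lost without CLE mouse 2, CLE mouse 4 or any 1 of the HFD mice. In Mrpl30, a large subunit gene, the level was 35.5, 44.6 and 37.1 FPKM in ND, 24.5, 28.1 and 24.9 FPKM in HFD, 30.8, 34.3 and 32.3 FPKM in CLE and 30.3, 36.5 and 37.2 FPKM in LU. The value of Mrpl30 depended on which transcripts were counted: with the transcript of the highest mean alone it was -0.21 in CLE against HFD, and with known transcripts and class code = alone 1.14, and neither passed (limma adjusted p = 0.63 and 0.18). With the same choices Mrpl30 was at -0.48 and -0.49 in HFD against ND (limma adjusted p = 0.20 and 0.53). In LU against HFD it was at 0.30 and 0.68 (limma adjusted p = 0.50 and 0.45), and it passed in neither comparison. The count of 10 also rested on single libraries, being 3 without HFD mouse 12, 4 without CLE mouse 4, 5 without CLE mouse 2 and 6 without HFD mouse 18, and 4 without the libraries with the letter R. Mrps15 and Mrps30 kept their call in each leave-one-out fit.

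The LU group was compared with the same HFD mice. In LU against HFD 14 members rose, none fell and 56 did not pass, 20.0% of the members against 13.2% of all genes higher and 13.6% lower, with a median log2 fold change of 0.22, against 0.03 over all genes. Of the large subunit 6 rose (Mrpl2, Mrpl30, Mrpl32, Mrpl37, Mrpl39 and Mrpl45), and of the small subunit 8 (Mrps5, Mrps7, Mrps12, Mrps15, Mrps26, Mrps30, Mrps34 and Mrps35), with medians of 0.20 and 0.23. The largest rises were those of Mrps15 (0.65 ± 0.11), Mrps5 (0.59 ± 0.10), Mrps7 (0.55 ± 0.11), Mrps30 (0.55 ± 0.11) and Mrps12 (0.45 ± 0.13; SE, n = 3 per group). Mrps15 and Mrps5 had a fold change over 1.5, and 4.81% of all genes were higher by this rule.

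In Mrps5 the LU mice measured 16.8, 15.8 and 16.0 FPKM, all above the HFD mice and within or next to the range of the ND mice. In Mrps12, whose bacterial counterpart lies at the decoding site, the level was 16.8, 22.5 and 17.8 FPKM in ND, 11.8, 13.0 and 13.8 FPKM in HFD and 15.03, 21.0 and 18.4 FPKM in LU. LU mouse 3 was the highest LU mouse in 47 of the 70 members, and its summed members reached 1762 FPKM against 1500 and 1571 in LU mice 2 and 8. It also had the highest sum of cytosolic ribosomal protein genes of all libraries, 25219 FPKM. Without LU mouse 3 the count was 4, without HFD mouse 12 it was 6, without HFD mouse 15 it was 8 and without HFD mouse 18 it was 9. With the letter R as a covariate it was 9, and without the libraries that carry it 14. Mrps15, Mrps5, Mrps7 and Mrps30 were called in each leave-one-out fit of LU against HFD. With the transcript of the highest mean alone, however, Mrps5 was at 0.22 in LU against HFD and did not pass (limma adjusted p = 0.35).

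The comparisons of CLE, LU and ND with HFD share the HFD mice, so that a low value in these mice enters each of them. Among the related lists, 35 of 68 OXPHOS genes rose in CLE and 45 in LU, with medians of 0.32 and 0.42. Of the cytosolic ribosomal protein genes 2 of 75 rose in CLE and 5 in LU, with medians of -0.03 and 0.15. Over all genes tested 15.5% were higher in CLE and 13.2% in LU, and 18.1% and 13.6% lower. Of the 15 translation factors 2 rose in each, Mtfmt and the release factor Mtrf1. Of the 25 assembly genes 2 rose and 1 fell in CLE (Mtg2 and Ngrn, and Rpusd4), and 3 rose and 1 fell in LU (Mtg2, Ngrn and Malsu1, and Rpusd4). Of the 17 synthetases 4 rose in CLE and 1 in LU, and of the 9 genes of transcription and DNA maintenance 3 rose in each, Tfb2m and Twnk in both. The counts that rose among the cytosolic ribosome, translation factors and assembly genes were near or below the shares of all genes. So was that of the synthetases in LU, and these counts are no result about those lists. None of the regulators of biogenesis passed in either comparison. Of the 8 subunit genes under another name none passed in CLE, and Mrpl28 (0.39) and Mrps24 (0.29) rose in LU. In both supplemented groups 8 of 10 adipocyte markers were higher and 10 of 10 macrophage markers lower than in HFD, and their part in the result was not tested.

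The CLE and LU groups were then compared with each other. No member passed in CLE against LU (limma), 2 had an unadjusted p under 0.05, and 5.26% of all genes did. By the adjusted p, 0.00783% of all genes were lower in CLE. The median log2 fold change was -0.07. Those 2 were Mrps5, lower in CLE by 0.27 on the log2 scale (95% interval -0.49 to -0.05), and Mrps11, at 13.6 FPKM in CLE and 10.9 FPKM in LU, with a log2 fold change of 0.30 (95% interval 0.06 to 0.54). Mrps11 was named after its value was seen. For Mrps15 the interval of the difference was -0.27 to 0.22, and for Mrps30 -0.32 to 0.14, so that differences of this size cannot be told from none with 3 mice per group. The doses of the extract and of luteolin differed.

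The supplemented groups were also compared with the ND mice. In CLE against ND 3 members were lower, Mrps30 (-0.53), Mrpl9 (-0.37) and Mrps35 (-0.36), and none higher, 4.29% of the members against 1.91% of all genes lower and 3.26% higher. The median of the members was -0.19. In LU against ND 4 were lower, Mrps18a (-0.45), Mrps30 (-0.44), Mrpl9 (-0.43) and Mrps35 (-0.32), and none higher, with a median of -0.12. These 4 are 5.71% of the members, near the 4.12% of all genes that were lower (8.68% were higher). The count in LU is therefore no result about the members. In Mrps18a the means of CLE and LU, 16.1 and 15.9 FPKM, lay next to the 16.0 FPKM of HFD: it measured 15.3, 15.4 and 17.6 FPKM in CLE and 13.6, 17.0 and 17.0 FPKM in LU, below the 18.3 FPKM of the lowest ND mouse. These counts of 3 and 4 rest on single libraries. Without the libraries with the letter R, ND mouse 2 is the only ND mouse, and calls are not counted here. In CLE against ND the values were then -0.50 for Mrps30, -0.40 for Mrpl9 and -0.42 for Mrps35. In LU against ND they were -0.10 for Mrps18a, -0.36 for Mrps30, -0.43 for Mrpl9 and -0.30 for Mrps35.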

How the data were processed

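Total RNA of eWAT was made into paired-end mRNA libraries with a kit that does not mark the strand. The authors deposited FPKM for 152210 transcripts, estimated with Cufflinks. The submitters' processing notes name TopHat2 2.0.12, Bowtie2 2.2.3, Cufflinks 2.2.1 and CASAVA 1.8.2. FPKM keep no read depth, so no count test was run. The table has 15 FPKM columns, of which 3 could be tied to no sample and were set aside, as were the columns of the authors' own comparisons. The column headed MD4 was taken as ND mouse 4 by inference from its number and place, and the columns headed CLL as CLE, from the diet in the labels.

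Transcripts with an Ensembl identifier (known, or assembled with class code = or j) were assigned to genes by GENCODE release M21 (GRCm38) and summed. In the rows carrying a member's name, neighbouring genes or retired identifiers made up 48.4% of the sum of Mrps28, 46.2% of that of Mrpl33, 21.5% of that of Mrps34 and 21.4% of that of Mrpl9 (0.639% in Mrps21), so rows were assigned by identifier rather than name. Exons of 26 members overlap those of another gene, and 3 have named pseudogenes, so their reads may be shared.

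The filter kept genes that reached 1 FPKM in 3 or more libraries, and limma 3.58.1 (R 4.3.3) was run on log2(FPKM + 1), which understates changes of low genes. All 12 libraries entered 1 fit without covariates, with Benjamini-Hochberg adjustment over the 12775 genes tested and a threshold of 0.05. Replicates are separate mice. Named were the members past a fold change of 1.5, the 5 largest rises and falls per comparison, the 3 highest and lowest levels per subunit, and members whose role differs from the name. For the other lists, at most 3 genes per list and comparison fell under the rule. Further names were added after their values were seen. The members and lists were chosen with earlier results of these data known. The method was tested on simulated data. Alternatives were another pseudocount (0.1), other filters, scalings, transcript choices, moderation, the letter R as a covariate or left out, a replicate block and each library left out. Tables and plots used Python 3.11.15, pandas 2.3.3 and matplotlib 3.10.9.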

Additional observations from a re-analysis of the deposited data

How the results depend on the processing

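The direction of the members' median held under every alternative run in all comparisons but LU against ND. Its range was -0.38 to -0.18 in HFD against ND, 0.11 to 0.18 in CLE against HFD, 0.14 to 0.25 in LU against HFD, -0.10 to -0.02 in CLE against LU and -0.25 to -0.06 in CLE against ND. With a fold change over 1.5 also required, the counts were 9 in HFD against ND, 1 in CLE against HFD, 2 in LU against HFD and 0 in both comparisons with ND. Without the libraries with the letter R they were 13 in HFD against ND (median -0.18), 4 in CLE against HFD, 0 in CLE against ND (median -0.057) and 1 in LU against ND, where that member was higher and the median 0.039. The letter R as a covariate gave 9 in LU against HFD. With the transcript of the highest mean alone the counts were 5 in CLE against HFD, 9 in LU against HFD and 1 in CLE against ND, and Mrpl30 in CLE against HFD turned to -0.21. Known transcripts alone gave 1 in CLE against ND, and a fit of only the groups compared gave 0 in CLE against ND and 0 in LU against ND. Quantile normalization gave 7 in LU against ND. The cause of these changes was not tested. Rows summed by the deposited gene name, an alternative chosen after seeing the data, gave 36 in HFD against ND, 11 in CLE against HFD and 16 in LU against HFD.

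Leaving out 1 library at a time gave counts of 27 to 42 in HFD against ND, 3 to 12 in CLE against HFD, 4 to 18 in LU against HFD, 0 to 0 in CLE against LU, 0 to 4 in CLE against ND and 1 to 7 in LU against ND. The medians ran from -0.38 to -0.23, 0.11 to 0.17, 0.14 to 0.25, -0.08 to -0.02, -0.25 to -0.13 and -0.19 to -0.06 in the same order. In CLE against ND the count of 3 became 0 without CLE mouse 11 or ND mouse 3, and 1 without CLE mouse 2, CLE mouse 4, HFD mouse 18 or ND mouse 2. In LU against ND the count of 4 became 1 without LU mouse 8 or ND mouse 3, 2 without LU mouse 2 or ND mouse 2, and 7 without LU mouse 3. In HFD against ND 24 members passed whichever of the 12 libraries was left out. In that comparison 10 members fell in each of the 27 alternatives, the added fold condition aside: Mrpl37, Mrpl9, Mrps15, Mrps26, Mrps30, Mrps31, Mrps34, Mrps35, Mrps5 and Mrps7. Of 1371 values of named members under the alternatives, 1182 kept their direction and side of the threshold, 179 lost it, 9 passed newly and 1 turned.

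The mouse numbers do not pair the groups: libraries that share a number had correlations of their deviations between -0.10 and 0.19 over 5 pairs. With the number as a replicate block the count was 5 in CLE against ND, 35 in HFD against ND, 10 in CLE against HFD, 14 in LU against HFD and 4 in LU against ND. The block moved no other count by over 1.5 times.

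With 3 mice per group and FPKM without read depth, counting error of low members such as Mrpl47 and Mrpl19 is not known. The median standard error of a member's log2 fold change was 0.12.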
